A study of Homo sapiens with 20 samples.

Results

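Expression of the 7 human genes that write, maintain and oxidize DNA methylation was followed in Jurkat T lymphoblasts and in a CD47-deficient line derived from them. The genes are DNMT1, UHRF1, DNMT3A, DNMT3B, TET1, TET2 and TET3. They were found by gene name among the 60719 genes of the deposited gene table, and 95 of the 232184 entries of the isoform table belong to them. All 7 were among the 16327 genes that passed the low-count filter. RNA was sequenced in 20 libraries, 10 from Jurkat cells labelled WT and 10 from JinB8, a somatic mutant of Jurkat deficient in CD47. Untreated cells (UT) of each line gave 1 library, at 1 h. The other 9 came from cells kept for 1, 3 or 6 h on plates coated with antibodies to CD3 and CD28 (CD3+CD28), on the same plates with thrombospondin-1 (CD3+CD28+TSP1), or with TSP1 alone. TSP1, a secreted matrix protein that binds CD47, was used at 1 μg/mL, and both lines were kept in serum-free medium. JinB8 is a single mutant line. Each condition was sequenced once and no label ties a library to a separate culture, so p-values measure the spread between libraries of a line across treatments or times.

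DNA methylation in mammals sits mostly on the cytosine of CpG dinucleotides. DNMT3A and DNMT3B place it on unmethylated DNA, UHRF1 recognizes the half-methylated sites left behind by replication and brings in DNMT1, and DNMT1 restores the methyl group on the new strand. The TET enzymes oxidize methylcytosine, which leads to its removal, and mutations of DNMT3A and TET2 are common in blood cancers.

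Library totals lay between 16107900 and 31737600 counts. CD47 mRNA was at 317 ± 42.1 CPM (counts for each 1000000 counts of the library, SD, n = 10) in Jurkat and 147 ± 12.6 CPM (SD, n = 10) in JinB8. The log2 fold change was −1.10 (SE 0.0784, edgeR quasi-likelihood test, adjusted p = 1.05e-10), so that the mRNA was lower in JinB8 and still present. By flow cytometry, the paper found no CD47 on the surface of the mutant cells. All 12 T cell markers examined were above 1 CPM on average in both lines, at levels that differed. TRAC averaged 185 CPM in Jurkat and 21.8 CPM in JinB8, ZAP70 220 and 116 CPM and TRBC1 894 and 515 CPM. CD28 averaged 45.1 CPM in Jurkat and 230 CPM in JinB8, CD2 43.4 and 117 CPM and CD7 18.0 and 42.0 CPM. CD247 also had the higher mean in Jurkat, and CD3D, CD3E, CD3G, CD5 and LCK had it in JinB8. Of 5 B cell markers, 2 were above 1 CPM in both lines, and their sum was 35.6 to 56.0 CPM in Jurkat and 5.86 to 13.7 CPM in JinB8. CD79A averaged 42.2 and 6.75 CPM of this and CD79B 1.89 and 2.47 CPM. MS4A1 and PAX5 were each at 0 in at least 1 library. Of 4 fibroblast markers, COL1A1 was above 1 CPM in both lines, and their sum was 1.89 to 6.69 CPM in Jurkat and 7.70 to 12.3 CPM in JinB8, with COL1A1 at 1.96 and 4.31 CPM and PDGFRB at 0.914 and 5.83 CPM. COL1A2, at 1.21 and 0.289 CPM, and DCN, at 0.270 and 0.116 CPM, had the higher mean in Jurkat and were each at 0 in at least 1 library. None of the 5 myeloid, 3 erythroid and 4 epithelial markers was above 1 CPM in both lines. The part of these genes in the results was not tested. The JinB8 library of CD3+CD28+TSP1 at 3 h stood apart, with the lowest total, 16107900 counts, and the highest TMM scaling factor, 1.20, and calls of the 7 genes that it changes are given with and without it.

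Levels of the 7 genes were first ordered on a per-length scale, in which the counts of each isoform were divided by its length and scaled to a sum of 1000000 in every library. DNMT1 had the highest mean level per length, 45.7 ± 11.6 (SD, n = 10) in Jurkat and 52.5 ± 10.6 (SD, n = 10) in JinB8. UHRF1 followed at 35.9 ± 6.20 and 36.1 ± 5.86, and DNMT3A at 14.3 ± 2.46 and 18.1 ± 3.96. The maintenance pair thus stood above the de novo enzymes in both lines. Within the pair, DNMT1 was the higher in 7 of 10 Jurkat libraries and 10 of 10 JinB8 libraries. Each count of a short isoform weighs more on this scale, and DNMT1 has 52 isoforms in the table against 8 for UHRF1. A DNMT1 isoform of 521 bases held 2.19% of the gene's counts in JinB8, and DNMT1-202, of 5274 bases, held 27.6%. Whether DNMT1 stays above UHRF1 on full-length isoforms alone was not tested. Among the oxidases, TET3 was at 7.73 ± 1.47 per length in Jurkat and 10.3 ± 7.15 in JinB8, and TET2 at 5.30 ± 1.41 and 6.17 ± 2.11. The 2 lowest genes changed places between the lines. TET1 was at 3.55 ± 0.876 and DNMT3B at 2.90 ± 0.599 per length in Jurkat, where TET1 was the higher in 9 of 10 libraries. In JinB8, DNMT3B was at 5.65 ± 1.98 and TET1 at 4.75 ± 1.68, and DNMT3B was the higher in 9 of 10 libraries. Among neighbours in this order, UHRF1 and DNMT3A were the only pair whose ranges did not overlap, in either line, with a mean ratio of 2.55 in Jurkat and 2.05 in JinB8.

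The comparison of JinB8 with Jurkat over all libraries asked which of the 7 genes differ between the CD47-deficient line and its parent. DNMT3B was higher in JinB8 and UHRF1 was lower, and the other 5 genes did not pass the test. These 2 of 7 genes are to be read against 40.4% of all genes tested that passed, 19.8% higher and 20.6% lower in JinB8. None of the 7 had CPM ranges that stayed apart between the lines, as 11.5% of all genes tested had. For single times the share of all genes whose ranges stay apart was not counted, so ranges apart at a single time are a description.

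DNMT3B (chromosome 20, 32762385 to 32809359 of GRCh38, plus strand) is a de novo methyltransferase best known from embryonic cells. Its lowest, median and highest levels were 9.60, 12.1 and 16.2 CPM in Jurkat and 14.0, 18.3 and 30.2 CPM in JinB8. Over all times the ranges overlapped, because the 1 h libraries of Jurkat reached the 6 h libraries of JinB8. JinB8 over Jurkat gave a log2 value of 0.71 (SE 0.160, edgeR adjusted p = 0.00106), a fold of 1.64, and DNMT3B was higher in JinB8 in 10 of the 10 pairs of libraries with the same treatment and time. At each time taken alone the ranges of the lines stayed apart, with 4 libraries a line at 1 h and 3 at 3 h and 6 h. At 1 h, DNMT3B was at 14.7 to 16.2 CPM in Jurkat and 26.8 to 30.2 CPM in JinB8, a log2 difference of 0.84 (SE 0.0709, edgeR adjusted p = 2.39e-06) beside 49.2% of genes that passed. At 3 h it was at 9.60 to 10.7 CPM and 16.6 to 19.3 CPM, a log2 difference of 0.83 (SE 0.125, edgeR adjusted p = 0.00142) beside 30.3%. The lines lay closer together at 6 h, at 11.2 to 12.3 CPM and 14.0 to 15.3 CPM, with a log2 difference of 0.33 (SE 0.0813, edgeR adjusted p = 0.00389) beside 59.6%. The 12 activated libraries alone gave 0.72 (SE 0.209, edgeR adjusted p = 0.0211) beside 24.8%. The 8 libraries without activation gave a difference of like size that missed the threshold, 0.75 (SE 0.249, edgeR adjusted p = 0.0692), beside 16.4%.

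UHRF1 (chromosome 19, 4903080 to 4962154, plus strand) encodes the reader of half-methylated CpGs. Its lowest, median and highest levels were 121, 152 and 189 CPM in Jurkat and 108, 129 and 143 CPM in JinB8, so that JinB8 lay over the lower part of the Jurkat range. JinB8 over Jurkat gave a log2 value of −0.25 (SE 0.0830, edgeR adjusted p = 0.0202), and UHRF1 was lower in JinB8 in 8 of the 10 matched pairs. The difference varied with time. It was −0.29 (SE 0.104, edgeR adjusted p = 0.0360) at 1 h, 0.02 (SE 0.104, edgeR adjusted p = 0.894) at 3 h and −0.41 (SE 0.0586, edgeR adjusted p = 6.87e-05) at 6 h. At 6 h the lines stayed apart, at 162 to 189 CPM in Jurkat and 124 to 136 CPM in JinB8. The call over all libraries was lost with limma voom, at −0.18 (adjusted p = 0.0967), and with no low-count filter, at −0.24 (edgeR adjusted p = 0.0618). The activated libraries alone gave −0.21 (SE 0.123, edgeR adjusted p = 0.249) and those without activation −0.26 (SE 0.125, edgeR adjusted p = 0.197), without a call in either.

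DNMT1 (chromosome 19, 10133342 to 10231286, minus strand), the maintenance methyltransferase, did not pass the test between the lines. Its lowest, median and highest levels were 144, 169 and 242 CPM in Jurkat and 154, 176 and 208 CPM in JinB8, and the log2 fold change was −0.05 with an interval of 2 SE from −0.26 to 0.17. The Jurkat range enclosed that of JinB8. At 1 h alone DNMT1 was lower in JinB8, with a log2 difference of −0.18 (SE 0.0578, edgeR adjusted p = 0.0214). DNMT3A (chromosome 2, 25227855 to 25342590, minus strand), the other de novo enzyme, was at 69.0, 79.1 and 84.0 CPM in Jurkat and 61.8, 83.4 and 101 CPM in JinB8. Its log2 fold change of 0.06 (interval of 2 SE from −0.09 to 0.22) covers opposite differences at single times. JinB8 was higher at 1 h, with a log2 difference of 0.19 (SE 0.0602, edgeR adjusted p = 0.0237), and lower at 6 h, with −0.24 (SE 0.0598, edgeR adjusted p = 0.00430).

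None of the 3 oxidases passed the test between the lines, and all of their ranges overlapped. TET1 (chromosome 10, 68560337 to 68694487) was at 31.6, 33.9 and 55.9 CPM in Jurkat and 31.7, 39.2 and 55.5 CPM in JinB8 (log2 fold change 0.14, interval of 2 SE from −0.12 to 0.40). TET2 (chromosome 4, 105145875 to 105279816) was at 33.2, 50.8 and 69.3 CPM in Jurkat and 36.4, 48.3 and 59.6 CPM in JinB8 (−0.04, interval from −0.29 to 0.21). TET3 (chromosome 2, 73984910 to 74108176) was at 73.2, 84.9 and 109 CPM in Jurkat and 74.4, 79.0 and 219.7 CPM in JinB8 (0.10, interval from −0.24 to 0.43). All 3 genes lie on the plus strand. The highest TET3 value belongs to the JinB8 library of CD3+CD28+TSP1 at 3 h, and without it the log2 fold change of TET3 was −0.11. In Jurkat the untreated library held the highest value of each oxidase, 55.9 CPM for TET1, 69.3 CPM for TET2 and 109 CPM for TET3. The untreated JinB8 library, at 49.3, 53.2 and 77.7 CPM, lay inside the range of the other JinB8 libraries.

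**Figure D1:**
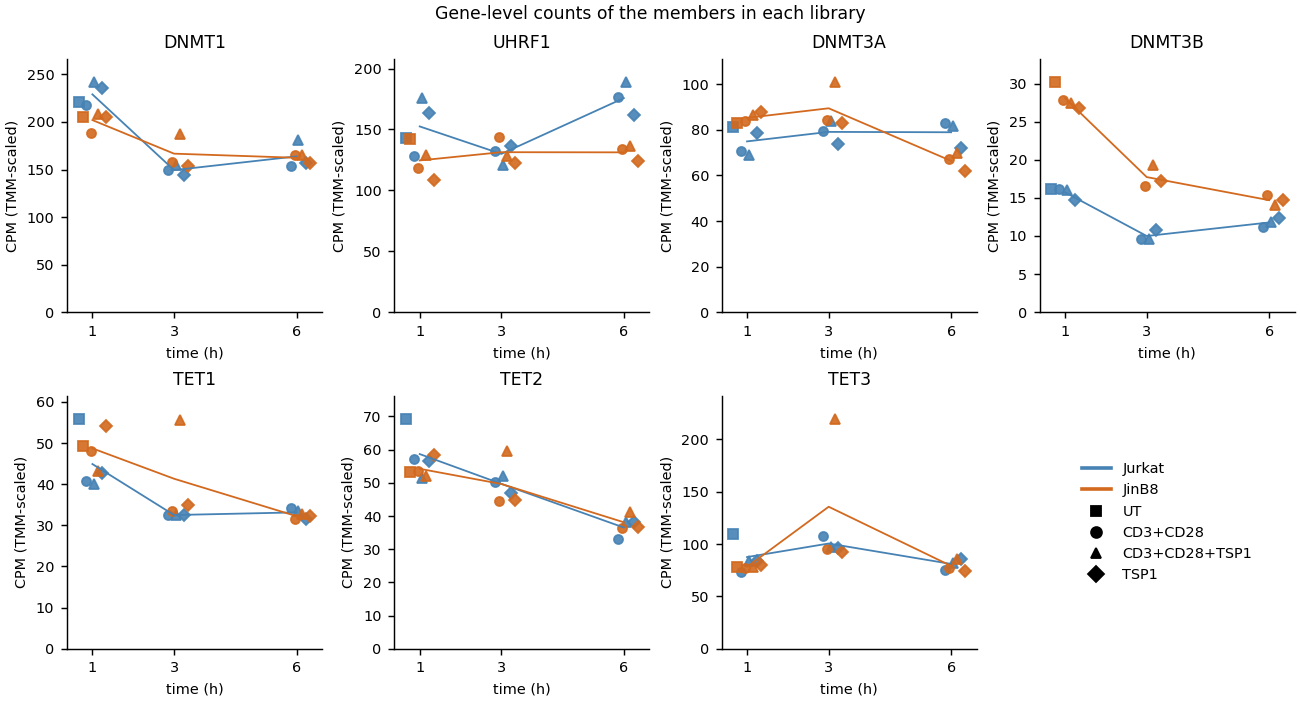
Level of each gene in each of the 20 libraries, in TMM-scaled CPM against time in h, with the line by color, the treatment by symbol and the mean of each line at each time joined by thin lines. DNMT3B in JinB8 lies above Jurkat at every time and goes from 26.8 to 30.2 CPM at 1 h to 14.0 to 15.3 CPM at 6 h, and 1 JinB8 library stands out in TET3 at 219.7 CPM.

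**Figure D2:**
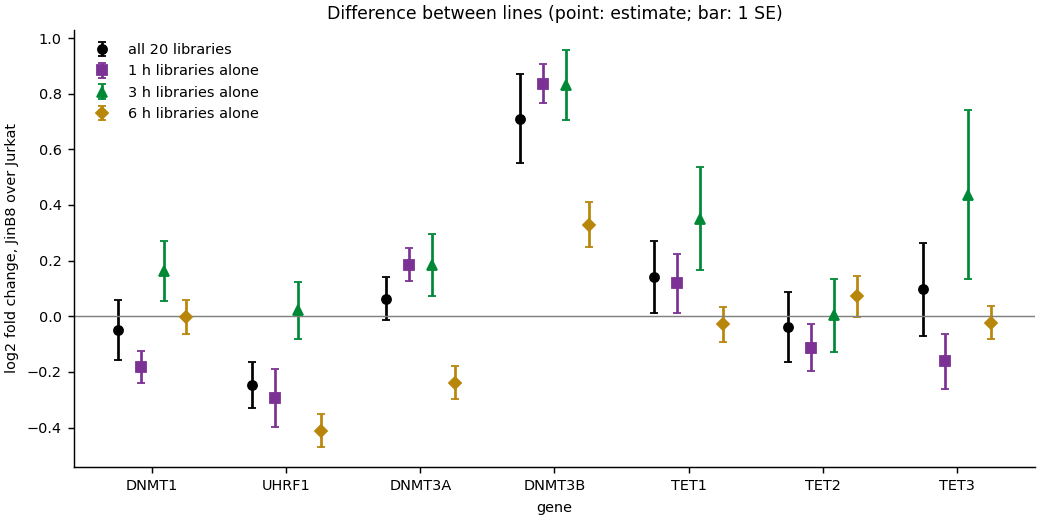
Log2 fold change of JinB8 over Jurkat for each gene, over all 20 libraries and over those of 1, 3 and 6 h alone, with bars of 1 SE. DNMT3B lies above 0 in each set, at 0.71 over all libraries and 0.33 at 6 h alone, and DNMT3A lies above 0 at 1 h and below it at 6 h.

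Change with time was tested in 1 model of all 20 libraries with a term for each treatment in each line, so that libraries of different treatments stood as replicates of a time. The untreated library of each line has a term of its own and adds nothing to these contrasts. No untreated library was taken at 3 or 6 h, so change with time cannot be told apart from the duration of treatment or plating. The share of all genes whose ranges stay apart between times was not counted. In Jurkat, 2 of the 7 genes passed at 3 h against 1 h, DNMT1 and DNMT3B, both lower, beside 34.3% of all genes, 17.4% lower. At 6 h, 3 of the 7 passed, DNMT1, DNMT3B and TET2, all lower, beside 50.5% of all genes, 24.8% lower. In JinB8, 3 of the 7 passed at 3 h, DNMT1 and DNMT3B lower and TET3 higher, beside 38% of all genes, 20.1% lower and 18% higher. At 6 h, 5 of the 7 passed, DNMT1, DNMT3A, DNMT3B, TET1 and TET2, all lower, where 53% of all genes passed and 27% were called lower. Without the JinB8 library of CD3+CD28+TSP1 at 3 h, 5, 4, 5 and 5 of the 7 genes passed in these contrasts, in the same order, beside 7099, 9404, 6128 and 9653 of all genes in place of 5600, 8238, 6208 and 8646.

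DNMT1 fell by 3 h in both lines. In Jurkat it was at 217 to 242 CPM at 1 h, 144 to 155 CPM at 3 h and 154 to 181 CPM at 6 h, and the 1 h libraries lay above all later ones. The log2 change was −0.63 (SE 0.0700, edgeR adjusted p = 1.55e-05) at 3 h and −0.50 (SE 0.0698, edgeR adjusted p = 3.92e-05) at 6 h. In JinB8 it was at 188 to 208 CPM at 1 h, 154 to 188 CPM at 3 h and 157 to 165 CPM at 6 h, and the highest 3 h library came close to the lowest 1 h library. The log2 change was −0.27 (SE 0.0698, edgeR adjusted p = 0.00759) at 3 h and −0.31 (SE 0.0697, edgeR adjusted p = 0.00209) at 6 h. The call at 3 h in JinB8 was lost without the TSP1 library of 1 h, at −0.22 (edgeR adjusted p = 0.0542). UHRF1, the partner of DNMT1, passed in none of these contrasts in the main edgeR fit of all libraries. Its log2 changes were −0.25 at 3 h and 0.18 at 6 h in Jurkat and 0.15 and 0.15 in JinB8. Without the JinB8 library of CD3+CD28+TSP1 at 3 h it passed at 3 h in Jurkat, at −0.25 (edgeR adjusted p = 0.0292). With limma voom UHRF1 passed at 6 h in JinB8, with a larger rise than in edgeR. The change at 3 h did not differ past the threshold between the lines for DNMT1, 0.36 (SE 0.0986, edgeR adjusted p = 0.0562), or UHRF1, 0.40 (SE 0.138, edgeR adjusted p = 0.120). In edgeR, 0 of the 7 genes differed between the lines in this change beside 4.28% of all genes. At an unadjusted p under 0.05, 2 of the 7 and 3519 of all genes differed, and DESeq2 called 1 of the 7, DNMT1. Without the JinB8 library of CD3+CD28+TSP1 at 3 h both passed, DNMT1 at 0.30 (edgeR adjusted p = 0.0475) and UHRF1 at 0.48 (adjusted p = 0.0481). DNMT1 also passed without JinB8 TSP1 at 3 h, at 0.41, and UHRF1 without Jurkat CD3+CD28 at 1 h, at 0.56.

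DNMT3B fell in both lines. Its log2 change in Jurkat was −0.64 (SE 0.0941, edgeR adjusted p = 0.000150) at 3 h and −0.41 (SE 0.0924, edgeR adjusted p = 0.00219) at 6 h. In JinB8 it was −0.63 (SE 0.0893, edgeR adjusted p = 0.000133) at 3 h and −0.90 (SE 0.0900, edgeR adjusted p = 1.71e-06) at 6 h. The changes at 3 h differed between the lines by 0.01, with an interval of 2 SE from −0.24 to 0.27. By 6 h the Jurkat libraries lay above those of 3 h and the JinB8 libraries lay below theirs, and the 6 h change differed between the lines by −0.49 (SE 0.129, edgeR adjusted p = 0.0196). DNMT3A was at 69.0 to 81.3 CPM at 1 h and 72.1 to 82.9 CPM at 6 h in Jurkat, where the times overlapped. In JinB8 it went from 83.1 to 87.7 CPM at 1 h to 61.8 to 70.0 CPM at 6 h, with no overlap and a log2 change of −0.38 (SE 0.0821, edgeR adjusted p = 0.00152). Its 6 h change differed between the lines by −0.49 (SE 0.116, edgeR adjusted p = 0.0117). The 6 h change was thus lower in JinB8 for both de novo enzymes, 2 of the 7 genes beside 16.6% of all genes that passed, 10.2% in this direction. With no low-count filter, 1 of the 7 genes passed in this difference in place of 2. The DNMT3A call was lost without any 1 of 4 libraries, Jurkat CD3+CD28 at 1 or 6 h, Jurkat CD3+CD28+TSP1 at 1 h and JinB8 TSP1 at 6 h, with differences of −0.42 to −0.37. The DNMT3B call was lost without any 1 of 7 libraries, Jurkat CD3+CD28+TSP1 or TSP1 at 1 or 6 h, JinB8 CD3+CD28 at 1 h and JinB8 CD3+CD28+TSP1 or TSP1 at 6 h, with differences of −0.49 to −0.37.

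The oxidases followed different courses. TET2 fell by 6 h in both lines, with log2 changes of −0.59 (SE 0.0999, edgeR adjusted p = 0.000207) in Jurkat and −0.52 (SE 0.0998, edgeR adjusted p = 0.000530) in JinB8. It was at 51.5 to 69.3 CPM at 1 h and 33.2 to 38.2 CPM at 6 h in Jurkat, and at 52.0 to 58.3 CPM and 36.4 to 41.4 CPM in JinB8, with no overlap between the times in either line. At 3 h in JinB8 TET2 passed without the library of CD3+CD28+TSP1 at 3 h, at −0.26 (edgeR adjusted p = 0.0361), or that of 1 h, at −0.28 (edgeR adjusted p = 0.0391), and not with all libraries. TET1 fell in JinB8 by 6 h, from 43.3 to 54.1 CPM to 31.7 to 32.8 CPM, a log2 change of −0.60 (SE 0.139, edgeR adjusted p = 0.00250). In Jurkat TET1 was at 40.2 to 55.9 CPM at 1 h, 32.5 to 32.6 CPM at 3 h and 31.6 to 34.3 CPM at 6 h, and all 1 h libraries lay above the later ones. Its Jurkat changes of −0.34 at 3 h and −0.31 at 6 h missed the threshold with all libraries (edgeR adjusted p = 0.0743 and 0.0752). With additive terms for activation, TSP1 and time they passed, at −0.41 and −0.38 (edgeR adjusted p = 0.0390 and 0.0385), as they did with no low-count filter and with 1 line alone. They also passed without the JinB8 library of CD3+CD28+TSP1 at 3 h (edgeR adjusted p = 0.000990 and 0.00110), which also leaves TET1 lower in JinB8 at 3 h, with a log2 change of −0.52 (edgeR adjusted p = 0.000180). That library enters the Jurkat contrasts through the shared estimate of the spread. TET3 was higher at 3 h in JinB8, at 92.0, 95.1 and 219.7 CPM against 77.0 to 80.2 CPM at 1 h, a log2 change of 0.69 (SE 0.190, edgeR adjusted p = 0.0111). At 6 h it was at 74.4 to 86.0 CPM, around the 1 h values. Without the highest library the 3 h change was 0.30 (edgeR adjusted p = 0.00941), and without the CD3+CD28+TSP1 library of 1 h it was 0.43 (edgeR adjusted p = 0.0960). In Jurkat TET3 was at 96.4 to 108 CPM at 3 h, a log2 change of 0.33 that missed the threshold with all libraries and passed without that JinB8 library (edgeR adjusted p = 0.199 and 0.00145).

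**Figure D3:**
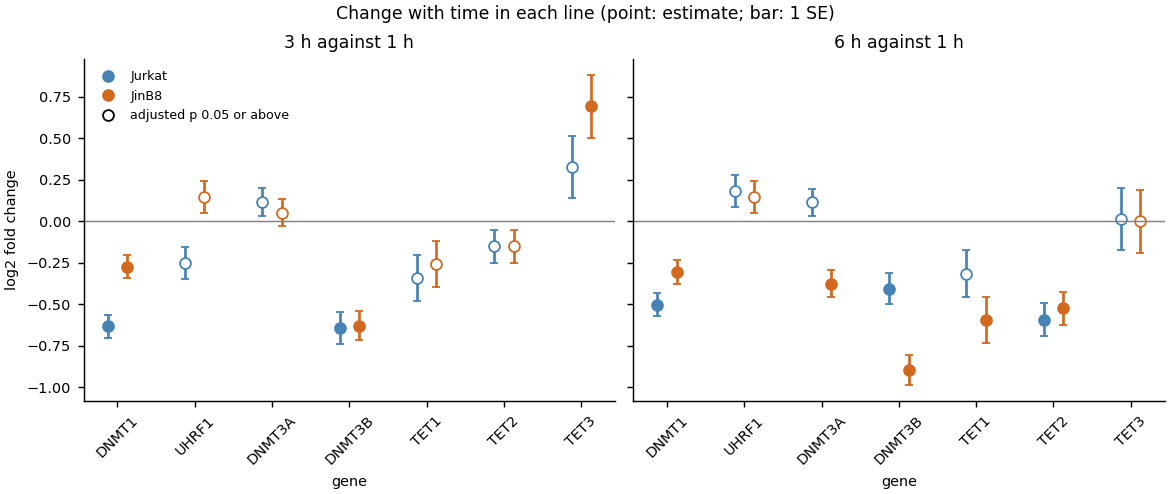
Log2 change of each gene at 3 h and at 6 h against 1 h in each line, with bars of 1 SE and filled points for an edgeR adjusted p under 0.05. DNMT1 and DNMT3B lie below 0 in all 4 contrasts, and DNMT3A at 6 h is at −0.38 in JinB8 and 0.11 in Jurkat.

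Activation by the antibodies was tested in the presence of TSP1, as CD3+CD28+TSP1 against TSP1 alone, since that is the comparison with a control at every time. TSP1 was tested on activated cells, as CD3+CD28+TSP1 against CD3+CD28. Each test takes 1 mean difference over 1, 3 and 6 h, so a response confined to 1 time can be missed. The activation test does not cover cells without TSP1. The paper reports that TSP1 inhibited the induction of several mRNAs on activation of WT Jurkat cells. None of the 7 genes passed either test in edgeR with the low-count filter. Activation passed for 15 genes in Jurkat (0.0919% of all tested) and 0 in JinB8 (0%), and TSP1 for 0 and 0 genes (0% in each line). At an unadjusted p under 0.05 these 4 tests gave 816, 2636, 366 and 1771 genes, and DESeq2 called 0 of the 7 in each. With no low-count filter, edgeR called 201, 538, 84 and 401 genes, and 1 of the 7, TET3, in each of the JinB8 tests. TET3 in JinB8 was the only one of the 7 at an unadjusted p under 0.05, with log2 changes of 0.51 (SE 0.190, edgeR adjusted p = 0.283) for activation and 0.50 (SE 0.189, edgeR adjusted p = 0.459) for TSP1. Without the JinB8 library of CD3+CD28+TSP1 at 3 h these were 0.10 and 0.08. The log2 difference of DNMT3B was −0.03 (interval of 2 SE from −0.22 to 0.16) on activation in the presence of TSP1 in Jurkat and 0.05 (interval from −0.13 to 0.23) in JinB8. With the filter, no difference between the lines in either response passed the test, for the 7 genes or for any gene tested (0% and 0% in edgeR, with 1048 and 393 genes at an unadjusted p under 0.05). With no low-count filter 255 and 140 genes differed, and 1 of the 7 in activation.

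The isoform table divides the reads of a gene among its annotated transcripts, and a share is an estimate of that division. The balance of DNMT3A isoforms moved with time. DNMT3A-202, the leading isoform, encodes 912 codons, and DNMT3A-203 starts inside the gene and encodes 723 codons. Transcripts from the inner start give the short form known as DNMT3A2, which lacks the amino end of the long form. In Jurkat the share of DNMT3A-203 was 8.13 to 14.2% at 1 h, 6.45 to 8.44% at 3 h and 29.1 to 31.4% at 6 h. In JinB8 it was 13.9 to 16.2% at 1 h, 3.46 to 9.77% at 3 h and 13.8 to 17.1% at 6 h. The 3 Jurkat libraries of 6 h stood above every other library, whatever their treatment. The level of DNMT3A-203 in Jurkat went from 5.53 to 11.1 CPM at 1 h to 21.5 to 26.4 CPM at 6 h, while DNMT3A-202 was at 45.2 to 55.4 CPM and 43.1 to 48.5 CPM. The test of these isoforms over time was added after their shares had been seen. The 6 h change of DNMT3A-203 was 1.78 (SE 0.288, edgeR adjusted p = 0.00230) in Jurkat, beside 14.9% of isoforms that passed, and −0.30 (SE 0.279, edgeR adjusted p = 0.520) in JinB8, beside 17.3%. The difference between the lines was −2.08 (SE 0.399, edgeR adjusted p = 0.0436), beside 0.945%. At 3 h the change was −1.31 (SE 0.289, edgeR adjusted p = 0.0252) in JinB8, beside 6.94%, and −0.24 (SE 0.284, edgeR adjusted p = 0.750) in Jurkat, beside 5.53%. With limma voom, the difference between the lines was lost only without the JinB8 library of TSP1 at 6 h, at −1.92 (adjusted p = 0.0531), and the 3 h change in JinB8 was lost without its CD3+CD28 or CD3+CD28+TSP1 library of 1 or 3 h, at −1.32 to −1.06. Over protein-coding isoforms, 3 begin inside the gene, 2 of them at the start of DNMT3A-203, and 3 begin at its outer end. The share of the isoforms that begin inside was, in Jurkat, 11.5 to 18.1% at 1 h, 8.81 to 10.4% at 3 h and 35.9 to 36.9% at 6 h, and in JinB8 it was 18.4 to 21.1%, 4.77 to 13.2% and 18.0 to 20.1%. DNMT3A-202 is 9421 bases long and DNMT3A-203 is 3589, with an earlier 3′ end, so that the use of the start and of the 3′ end cannot be told apart for these 2. The window around the inner start is shown as the place where the isoform that moved begins. It was read from the minus strand of chr2:25252262-25252561 of GRCh38 and holds 27 CpGs, in capitals.
DNMT3A inner start: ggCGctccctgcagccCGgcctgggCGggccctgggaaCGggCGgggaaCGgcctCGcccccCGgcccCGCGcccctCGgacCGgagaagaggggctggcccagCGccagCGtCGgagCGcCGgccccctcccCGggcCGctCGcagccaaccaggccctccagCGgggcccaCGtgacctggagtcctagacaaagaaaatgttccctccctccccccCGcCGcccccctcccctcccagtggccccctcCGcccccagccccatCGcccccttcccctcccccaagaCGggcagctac

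The leading DNMT3B isoform in both lines was DNMT3B-203, of 770 codons, with 73.3 ± 10.7% (SD, n = 10) of the gene's counts in Jurkat and 71.8 ± 8.67% (SD, n = 10) in JinB8. Its level was higher in JinB8, as for the gene, at 15.2 ± 4.71 CPM against 9.35 ± 1.98 CPM (log2 fold change 0.70, SE 0.172, edgeR adjusted p = 0.00663), beside 15.1% of isoforms that passed. This isoform skips exons 10, 21 and 22 of the longest form, DNMT3B-202, which has 853 codons. Exons 21 and 22 code for part of the catalytic domain, and the protein without them, known as DNMT3B3, is regarded as inactive by itself. By the isoform counts, exons 21 and 22 were held by 21.4 ± 8.49% of DNMT3B transcripts in Jurkat and 25.6 ± 8.90% in JinB8, and exon 10 by 1.15 ± 2.57% and 2.12 ± 2.75%. The ranges of the lines overlapped for each, and most DNMT3B transcripts in both lines lacked all 3 exons. The exons are shown for this reason, with CpGs in capitals, from the plus strand of chromosome 20 of GRCh38 at 32793536 to 32793595, 32805338 to 32805407 and 32806209 to 32806327.
DNMT3B exon 10: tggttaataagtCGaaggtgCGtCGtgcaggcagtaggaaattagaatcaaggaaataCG
DNMT3B exon 21: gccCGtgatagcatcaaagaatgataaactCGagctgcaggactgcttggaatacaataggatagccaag
DNMT3B exon 22: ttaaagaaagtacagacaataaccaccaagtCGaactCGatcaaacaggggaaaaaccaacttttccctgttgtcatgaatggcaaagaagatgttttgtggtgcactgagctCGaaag

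The counts of DNMT1 were divided differently among its isoforms in the lines. DNMT1-202, of 1632 codons, held 18.9 ± 3.31% in Jurkat and 27.6 ± 3.67% in JinB8, a difference of 8.73 points (two-sided permutation test over libraries, adjusted p = 0.000800 over the 10 isoforms tested). Its level was higher in JinB8, with a log2 difference of 0.53 (SE 0.119, edgeR adjusted p = 0.00348). DNMT1-251, of 1577 codons, held 23.1 ± 8.53% in Jurkat and 9.71 ± 7.45% in JinB8 (permutation test, adjusted p = 0.00700). Without the 1 h libraries this difference was −10.4 points and did not pass (permutation test, adjusted p = 0.365), and the level of DNMT1-251 did not pass between the lines (edgeR adjusted p = 0.121). DNMT1-202 holds exon 40, of 91 bases, which DNMT1-251 lacks. Over all isoforms that span it, exon 40 was held by 55.7 to 80.6% of transcripts in Jurkat libraries and 72.7 to 98.4% in JinB8 libraries, and the ranges overlapped. It is shown because DNMT1-251 and 1 other isoform lack it, from the minus strand of chromosome 19 of GRCh38, at 10134217 to 10134307, with CpGs in capitals.
DNMT1 exon 40: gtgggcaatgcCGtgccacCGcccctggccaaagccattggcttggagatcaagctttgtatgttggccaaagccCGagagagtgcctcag

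The other tested shares did not pass between the lines, with permutation adjusted p from 0.257 to 0.820. UHRF1-208 held 95.1 ± 1.05% of UHRF1 counts in Jurkat and 94.0 ± 1.46% in JinB8, and TET3-202 held 98.6 ± 0.697% and 98.8 ± 0.361% of TET3 counts. TET2-203, of 2002 codons, held 69.3 ± 7.11% and 65.8 ± 5.73% of TET2 counts. TET2-202, of 1165 codons, was lower at 6 h in both lines, with log2 changes of −1.10 (SE 0.217, edgeR adjusted p = 0.00696) in Jurkat and −0.81 (SE 0.215, edgeR adjusted p = 0.0273) in JinB8. TET1 has 1 isoform in the table. DNMT1 shares 83 exon bases with S1PR2 and TET3 shares 390 with an unnamed lncRNA gene, both on the same strand, and reads cannot be told apart there.

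**Figure D4:**
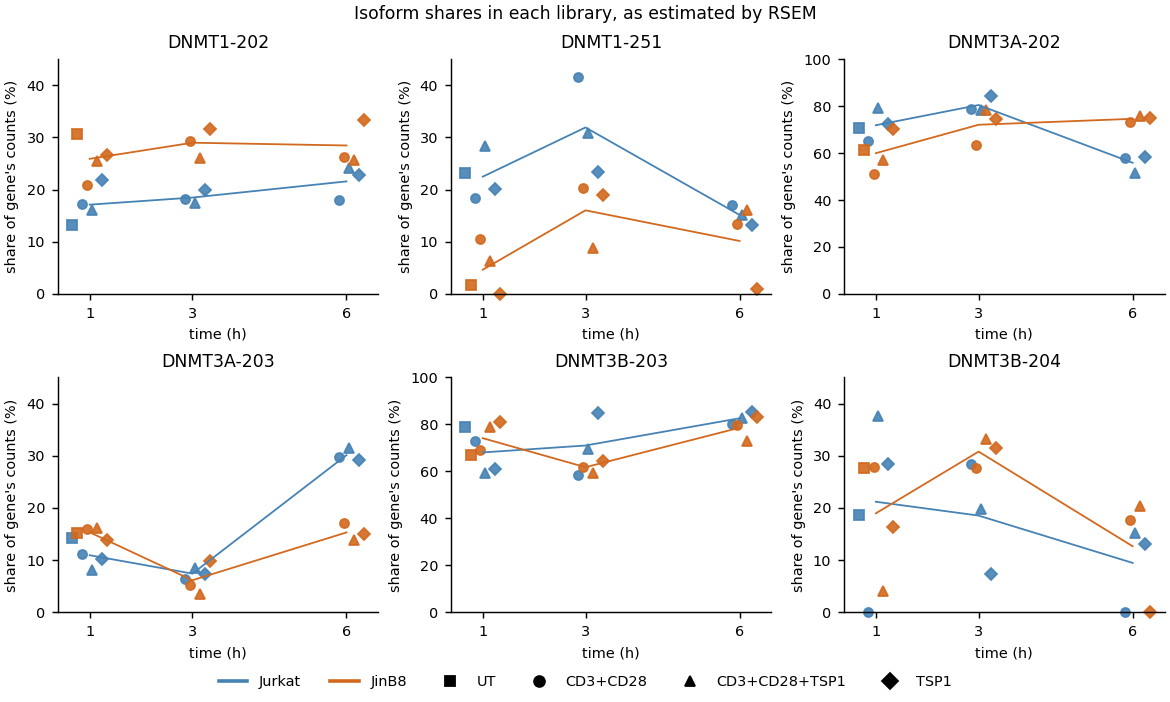
Share of the gene's counts held by 2 isoforms each of DNMT1, DNMT3A and DNMT3B in each library, in % against time in h, with the line by color, the treatment by symbol and line means joined. DNMT3A-203 is at 29.1 to 31.4% in the 3 Jurkat libraries of 6 h and at 3.46 to 17.1% in the JinB8 libraries.

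Across the 20 libraries, after the mean of each line had been taken out of log2 CPM, DNMT1 and DNMT3B varied together (Pearson r = 0.82), as did TET1 and TET2 (0.83) and DNMT3B and TET1 (0.81). UHRF1 was near 0 with DNMT1 (0.13) and opposite to TET2 (−0.48). Within each line alone, UHRF1 and DNMT1 had r = 0.25 in Jurkat and −0.24 in JinB8. TET1 and TET3 had r = 0.32, and −0.04 without the JinB8 library of CD3+CD28+TSP1 at 3 h. These values describe 20 libraries that share treatments, times and depth. By the same measure over 9872 genes, the genes most like DNMT3B were CCNG2 (0.97), TRPC4AP (0.97) and NCAPD3 (0.97), and the most opposite was NAA50 (−0.97). Those most like DNMT1 were PTK2B (0.95), ERN1 (0.95) and MINK1 (0.95), with TMEM99 (−0.96) most opposite. DNMT3A was most like FOXM1 (0.90), NCBP3 (0.89) and TEP1 (0.88), with RPIA (−0.88) opposite, and UHRF1 most like ZBTB17 (0.94), SPPL2B (0.93) and MAFK (0.93), with AP4B1 (−0.83) opposite. TET1 was most like POGZ (0.97), TNRC6B (0.97) and MALAT1 (0.97), TET2 most like FBXO30 (0.96), TUT4 (0.96) and NSD3 (0.95), and TET3 most like AGO3 (0.94), MEX3A (0.94) and IGSF9B (0.93). The most opposite to these were COA6 (−0.93), DHX16 (−0.96) and RPL27 (−0.97). Without the JinB8 library of CD3+CD28+TSP1 at 3 h, in which TET3 was highest, the correlations with TET3 were 0.78 for AGO3, 0.80 for MEX3A, 0.73 for IGSF9B and −0.91 for RPL27, values added after the data had been seen.

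Genes that work beside the 7 were read from lists, with the 40.4% of all genes called between the lines as background. Of 21 partners of maintenance, 5 were higher and 9 lower in JinB8. HELLS, a chromatin remodeler that methylation of repeats depends on, was at 164 ± 48.2 CPM in Jurkat and 82.3 ± 29.6 CPM in JinB8 (log2 fold change −0.99, edgeR adjusted p = 0.000257). The histone methyltransferase SUV39H2 (−0.57) and the replication clamp PCNA (−0.49) were lower, and USP7, which protects UHRF1 and DNMT1 from degradation, was higher (0.48). Of 18 S phase genes, 10 were lower in JinB8, as UHRF1 was, and 0 were higher, with POLA1 at −0.93, RRM2 at −0.81 and MCM4 at −0.46. At 6 h against 1 h, 17 of these 18 were lower in Jurkat and 10 in JinB8, beside 24.8% and 27% of all genes. In the main edgeR fit UHRF1 had no called change at 6 h, at 0.18 and 0.15. With limma voom it passed at 6 h in JinB8, as a rise. The part of the cell cycle in these results was not tested. Of 24 tested partners of demethylation, 8 were higher and 4 lower in JinB8. The repair glycosylase NEIL2 was at 2.68 ± 0.536 CPM in Jurkat and 8.39 ± 1.61 CPM in JinB8 (1.65), and EBF1, a B lineage transcription factor, at 2.97 ± 0.959 CPM in Jurkat and 0.631 ± 0.294 CPM in JinB8 (−2.22). Of 15 tested genes of the methyl donor cycle, 4 were higher and 1 lower, with CBS at 1.45. Of 9 methyl-CpG binding proteins and their relatives, 2 were higher, MBD1 (0.17) and MBD4 (0.22), and 2 lower, MBD2 (−0.54) and ZBTB33 (−0.26). Of 11 relatives of the 7 genes and of deaminases that act on cytosine, 6 were tested, 3 were higher, the deaminases APOBEC3G (1.31), APOBEC3D (0.89) and APOBEC3F (0.72), and 2 lower, among them the RNA methyltransferase TRDMT1 (−0.40).

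Genes that methylation often silences were read beside the enzymes, and methylation itself was not measured. Of 31 germline genes, 9 passed the low-count filter, and of these 6 were higher and 1 lower in JinB8, beside 19.8% and 20.6% of all genes tested. MAGEB1 was at 0.133 ± 0.101 CPM in Jurkat and 41.7 ± 5.07 CPM in JinB8, MAGEB2 at 0.174 ± 0.0827 CPM in Jurkat and 1.65 ± 0.391 CPM in JinB8 and MAGEA4 at 4.45 ± 1.52 CPM in Jurkat and 17.7 ± 4.88 CPM in JinB8. The lower gene, named after its values were seen, was SYCP3, a protein of meiotic chromosomes, at 0.962 ± 0.135 CPM in Jurkat and 0.506 ± 0.300 CPM in JinB8 (log2 fold change −0.93). A count of 3, taken as the limit of detection, stands for 0.0979 to 0.156 CPM, so MAGEB1 was about at this limit in Jurkat. Of 15 tumor suppressors with CpG island promoters, 8 were tested, 5 were higher and 1 lower in JinB8, beside the same shares of all genes. DAPK1, a kinase of cell death, was at 6.56 ± 3.97 CPM in Jurkat and 33.5 ± 5.65 CPM in JinB8, the transcription factor KLF4 at 1.76 ± 0.581 CPM in Jurkat and 6.22 ± 1.90 CPM in JinB8, and HIC1, a repressor often methylated in cancer, at 5.35 ± 2.59 CPM in Jurkat and 14.6 ± 5.05 CPM in JinB8. A gene that passed the filter only through the line where it is high had to differ, and these counts support nothing by themselves.

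On and off genes were taken by a rule on the levels and carry no test. A gene was on at 1 CPM or more in every library of a line, and off in the other at a mean under 0.1 CPM. All 7 genes of the methylation machinery were on in both lines. By this rule 20 genes were on in Jurkat only, led by CLEC2B (17.3 ± 5.03 CPM), ZNF544 (13.5 ± 2.31 CPM) and GNB4 (10.9 ± 1.84 CPM), and 5 of them have ZNF names. In JinB8 only, 21 genes were on, led by FSTL5 (30.4 ± 5.46 CPM), AP003900.1 (13.1 ± 2.14 CPM) and ZNF727 (7.02 ± 1.43 CPM), and 4 have ZNF names. RefSeq promoter windows of 300 bases, 250 before and 50 from the start, were found for 16 and 14 of these genes. The ratio of observed to expected CpG in them had a median of 0.902 for genes on in Jurkat only and 0.614 for genes on in JinB8 only, beside 0.838 for the 10698 tested genes with a window. It was 0.6 or more in 13 of 16, 7 of 14 and 80.8% of these windows.

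RefSeq windows were used for 6 of the 7 genes themselves, all but DNMT3B, and were rich in CpG with 1 exception. The ratio was 0.874 for DNMT1, 0.877 for UHRF1, 1.02 for DNMT3A, 1.03 for TET2 and 0.878 for TET3. TET1 had 10 CpGs and a ratio of 0.463. The TET1 window is shown as the exception, from the plus strand of GRCh38 at chr10:68560087-68560386. That of FSTL5, the highest gene on in JinB8 only, is from the minus strand of chr4:162163951-162164250 and has a ratio of 0.481. That of ZNF544, the highest gene on in Jurkat only with a window, is from the plus strand of chr19:58228664-58228963 and has a ratio of 0.926. CpGs are in capitals.
TET1 promoter: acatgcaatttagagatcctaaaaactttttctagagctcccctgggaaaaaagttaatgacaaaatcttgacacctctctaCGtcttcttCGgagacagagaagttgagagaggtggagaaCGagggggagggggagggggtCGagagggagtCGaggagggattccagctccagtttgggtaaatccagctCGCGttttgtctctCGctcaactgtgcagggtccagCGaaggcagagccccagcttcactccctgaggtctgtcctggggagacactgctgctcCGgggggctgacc
FSTL5 promoter: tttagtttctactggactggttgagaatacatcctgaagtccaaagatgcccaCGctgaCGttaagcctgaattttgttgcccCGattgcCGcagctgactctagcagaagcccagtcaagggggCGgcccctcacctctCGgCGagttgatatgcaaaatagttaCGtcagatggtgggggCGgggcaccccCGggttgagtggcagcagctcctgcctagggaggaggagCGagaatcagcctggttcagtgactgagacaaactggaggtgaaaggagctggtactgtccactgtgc
ZNF544 promoter: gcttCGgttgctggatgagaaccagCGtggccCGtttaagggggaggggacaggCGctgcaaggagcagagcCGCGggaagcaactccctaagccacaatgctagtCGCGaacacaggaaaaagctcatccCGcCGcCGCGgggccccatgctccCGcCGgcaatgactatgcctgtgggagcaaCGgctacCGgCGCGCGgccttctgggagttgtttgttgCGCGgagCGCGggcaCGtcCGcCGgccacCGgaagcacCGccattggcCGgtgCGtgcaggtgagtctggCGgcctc

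Because DNMT1 and UHRF1 act at replication, the windows were searched on both strands for forms of the motif of E2F, a factor of S phase genes, spelled TTTGGCGC, TTTCGCGC and TTTCCCGC. TTTCGCGC and its reverse complement can share bases. DNMT1 and UHRF1 had 1 match each and the windows of DNMT3A, TET1, TET2 and TET3 had 0, where 2.74% of the 35116 RefSeq windows and 4.66% of the windows of tested genes had one. A match describes letters and measures no binding. The DNMT1 window was read from the minus strand of chr19:10194904-10195203 and the UHRF1 window from the plus strand of chr19:4909251-4909550, and the match is in capitals.
DNMT1 promoter: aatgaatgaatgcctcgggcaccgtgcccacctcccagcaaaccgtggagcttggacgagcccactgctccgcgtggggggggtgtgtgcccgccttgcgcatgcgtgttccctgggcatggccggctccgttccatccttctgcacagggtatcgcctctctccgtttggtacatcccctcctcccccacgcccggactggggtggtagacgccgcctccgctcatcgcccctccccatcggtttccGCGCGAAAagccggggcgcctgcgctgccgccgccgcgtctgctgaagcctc
UHRF1 promoter: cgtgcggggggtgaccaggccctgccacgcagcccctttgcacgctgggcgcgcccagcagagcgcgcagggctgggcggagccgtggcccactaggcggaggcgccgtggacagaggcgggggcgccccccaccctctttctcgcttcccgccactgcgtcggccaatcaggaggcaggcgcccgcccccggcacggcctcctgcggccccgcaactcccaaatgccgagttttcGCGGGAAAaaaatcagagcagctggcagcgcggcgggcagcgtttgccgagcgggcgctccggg

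**Figure D5:**
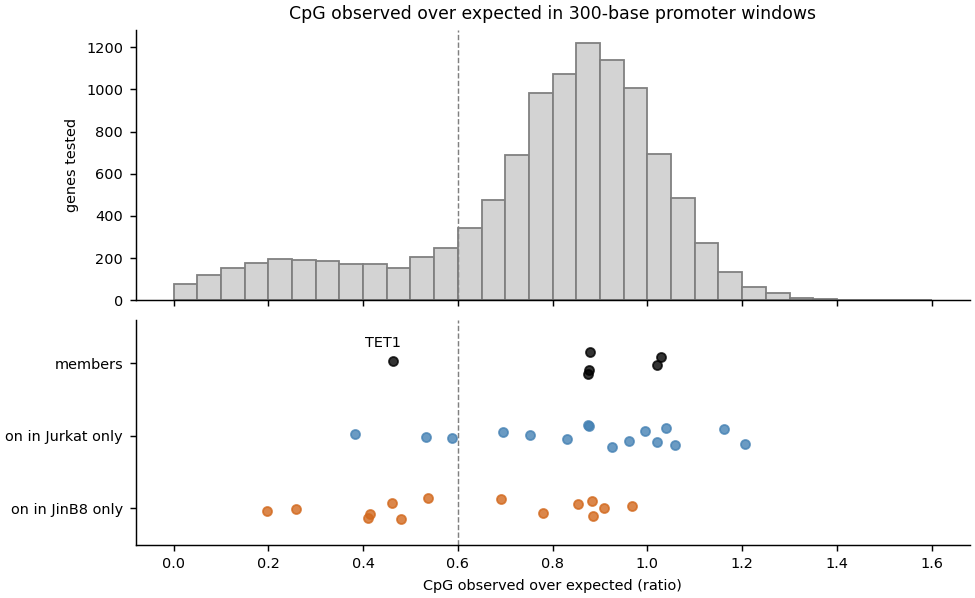
Ratio of observed to expected CpG in 300-base promoter windows, as a histogram of tested genes above and as points for 6 of the 7 genes and for the genes on in 1 line only below, with a dashed line at 0.6. TET1, at 0.463, is the only one of these 6 under 0.6, and genes on in JinB8 only have a median of 0.614.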

How the data were processed

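RNA was measured in 10 Jurkat and 10 JinB8 libraries made with a TruSeq mRNA kit. Per the labels and methods, reads went through Cutadapt 1.18, STAR 2.4.2a on GRCh38 and RSEM 1.3.3 on GENCODE 36, and the authors deposited expected counts. The strand setting is not given in the sources used here. Both tables hold 2 further columns that belong to no sample here and were not used. Expected counts were rounded, genes were kept by filterByExpr (minimum count 10, total 15) and libraries were scaled by TMM in edgeR 4.0.16 (R 4.3.3). P-values of the quasi-likelihood fits took a Benjamini-Hochberg adjustment across every gene or isoform tested (threshold 0.05), and the procedure was tested on simulated data. Isoform shares were compared by permutation over libraries with 100000 resamples. Positions are from GENCODE 44 and promoters from RefSeq. Alternatives used DESeq2 1.42.0, limma 3.58.1 voom, other scaling, filters and models, and each library left out in turn. Pairs of libraries with the same treatment and time, a pairing taken from the labels, had correlated deviations in all 10 pairs (r from 0.11 to 0.42), though 1 of 10 libraries correlated best with its own partner. The genes named are the 7, the 3 most alike and 1 most opposite to each, up to 4 called genes with the largest change per list, and the highest on and off genes. A few items are not reported here. The members and lists were chosen with earlier results of these data known.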

Additional observations from a re-analysis of the deposited data

Results flagged for a closer look

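TET1 in the untreated Jurkat library, at 55.9 CPM, stood apart from the other Jurkat libraries, both over all times and among those of 1 h. TET3 in the JinB8 library of CD3+CD28+TSP1 at 3 h, at 219.7 CPM, stood apart from the other JinB8 libraries. DNMT1 in the JinB8 library of CD3+CD28 at 1 h, at 188 CPM, and DNMT3B in the Jurkat library of TSP1 at 1 h, at 14.7 CPM, were low among the 4 libraries of their line at 1 h. Each was picked by the gap to its nearest neighbour as a share of the range, a measure that picks about 1 in 20 groups by chance.

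The change from 1 h to 6 h differed between the lines for DNMT3A, by −0.49, and for DNMT3B, by −0.49 on the log2 scale, JinB8 minus Jurkat. It differed for the isoform DNMT3A-203 by −2.08, in a test added after its shares had been seen.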

How the results depend on the processing

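Of 2034 values over all settings, 1855 kept their direction and side of the threshold or, for counts of genes, stayed within 1.5 times the main count. The higher DNMT3B in JinB8 passed in every setting but the libraries without activation alone (0.75). With a replicate block for the matched pairs, DNMT3B was at 0.68 (edgeR adjusted p = 7.28e-06) and 8957 genes were called in place of 6596. The block changed the call of none of the 7 genes or their isoforms, and TET2-202 turned to 0.051. Limma voom turned DNMT1 to 0.027, TET2 to 0.0033 and TET2-202 to 0.035, and left UHRF1 at −0.18 without a call, as did no low-count filter (−0.24). Activated libraries alone gave 4067 genes, UHRF1 at −0.21 without a call and TET2 at 0.045, and libraries without activation gave 2706 genes, UHRF1 at −0.26 without a call and TET3 at −0.19. The 1 h libraries alone gave DNMT1 −0.18, DNMT3A 0.19 and TET3 −0.16, those of 3 h DNMT1 0.16, UHRF1 0.021 and TET2 0.0035, and those of 6 h DNMT3A −0.24, TET1 −0.029, TET2 0.072 and TET3 −0.023. The 6 h change of TET3 in JinB8 turned to 0.0040 with DESeq2, 0.087 with voom, 0.035 with upper-quartile factors and 0.017 with 1 line alone, and in Jurkat to −0.0087 with upper-quartile factors and −0.061 with additive terms. UHRF1 at 6 h in JinB8 passed with voom (0.25), and TET1 at 6 h in Jurkat passed with no filter (−0.33), additive terms (−0.38) and 1 line alone (−0.32). Without the 1 h libraries, the share of DNMT1-251 differed by −10.4 points without a call, DNMT3A-202 by 5.16 and TET3-202 by −0.116. The causes were not tested.

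Genes called for activation in Jurkat were 54 with DESeq2, 28 with voom, 201 with no filter, 46 with additive terms and 5 with 1 line alone, against 15. With no filter, 538 were called for activation in JinB8, 84 for TSP1 in Jurkat and 401 in JinB8, 255 and 140 for the differences between the lines in activation and TSP1, and 1 of the 7 genes in each JinB8 test, in the difference in activation and in that at 6 h. DESeq2 called 1 gene for TSP1 in Jurkat and 4 for the difference in activation, where additive terms called 1. For the difference at 3 h, 1069 genes were called with DESeq2, 1397 with no filter and 462 with additive terms, and 1 of the 7 with DESeq2, voom or no filter.

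With each library left out in turn, the difference between the lines ranged from −0.085 to 0.011 for DNMT1, −0.082 to 0.027 for TET2 and −0.11 to 0.15 for TET3. The 3 h change of DNMT3A in JinB8 ranged from −0.0087 to 0.12, the 6 h change of TET3 from −0.22 to 0.16 in JinB8 and −0.065 to 0.043 in Jurkat, and that of TET1 in Jurkat from −0.36 to −0.27. Genes called ranged from 0 to 42 for activation in Jurkat, 0 to 1 for TSP1 in JinB8, and, for differences between the lines, 169 to 1066 at 3 h, 1459 to 4273 at 6 h, 0 to 9 in activation and 0 to 1 in TSP1. Of the 7 genes, 0 to 2 differed at 3 h and 0 to 3 at 6 h. Share differences ranged from −3.69 to 0.224 points for DNMT3A-202 and −0.293 to 1.42 for TET2-202. The difference in DNMT3A-203 at 6 h ranged from −2.25 to −1.81 under voom. DNMT3B had the fewest counts of the 7 genes, 213 to 897 per library, and its isoforms fewer still.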
